A study of Mus musculus with 6 samples.

Results

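Cholesterol synthesis genes were examined in RNA sequencing libraries of mouse brain tissue from adult males labelled as having high or low sexual motivation. The 7 genes, Hmgcs1, Idi1, Fdft1, Sqle, Cyp51, Dhcr7 and Insig1, were picked by symbol from a table of 13170 genes, and all 7 were found. Each group had 3 libraries, from C57 mice with no allele or treatment named, and neither ages nor numbers of animals per library are given. The tissue is named in more than 1 way: the title and design text point to the medial amygdala, the abbreviation PrL stands in the extraction protocol, and the tissue label reads brain. Values are FPKM, fragments scaled to transcript length and to the mapped fragments of the library, and are given as mean ± SD over the 3 libraries of a group. Because FPKM are scaled by length, levels of different genes can be set side by side. The p-values rest on the spread between the libraries of a group, part of which may be technical.

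The brain makes its own cholesterol, since lipoproteins of the blood hardly cross the blood-brain barrier, and much of it ends up in myelin. Synthesis starts from acetyl units, passes through mevalonate and isoprenoid pyrophosphates to squalene, and continues over lanosterol to cholesterol. When sterols in the endoplasmic reticulum run low, the transcription factor SREBP-2 is released by cleavage and activates most genes of the pathway together. Insig1 is itself a target of this system and encodes the anchor that retains the SREBP precursor when sterols are plentiful.

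Promoter windows from RefSeq on GRCm38.p6, which run from 250 bases before to 50 after a start site, were found for 5 of the 7 genes, with 7 windows in all. The windows of Hmgcs1 and Idi1, whose levels varied most alike across the libraries, and of Insig1, which was higher in every high library, are printed 5′ to 3′ on the strand of the gene. Capitals mark matches to the sterol element TCACNCCAC, to the CCAAT box (CCAAT, bound by NF-Y, a partner of SREBP) or to the E-box (CACGTG), on either strand.
Hmgcs1, chr13:119690101-119690400, plus strand: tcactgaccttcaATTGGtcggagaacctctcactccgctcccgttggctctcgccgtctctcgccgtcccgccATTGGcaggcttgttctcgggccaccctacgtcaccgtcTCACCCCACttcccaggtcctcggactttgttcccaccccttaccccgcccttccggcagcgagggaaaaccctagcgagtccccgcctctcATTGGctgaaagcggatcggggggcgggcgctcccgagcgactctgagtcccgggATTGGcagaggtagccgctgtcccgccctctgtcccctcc
Idi1, chr13:8885356-8885655, plus strand: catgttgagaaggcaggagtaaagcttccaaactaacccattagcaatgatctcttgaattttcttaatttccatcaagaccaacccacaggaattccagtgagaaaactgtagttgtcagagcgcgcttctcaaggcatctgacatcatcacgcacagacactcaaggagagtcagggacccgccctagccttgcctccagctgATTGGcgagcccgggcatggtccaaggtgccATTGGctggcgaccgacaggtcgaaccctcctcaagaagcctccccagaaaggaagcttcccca
Insig1, chr5:28071162-28071461, plus strand: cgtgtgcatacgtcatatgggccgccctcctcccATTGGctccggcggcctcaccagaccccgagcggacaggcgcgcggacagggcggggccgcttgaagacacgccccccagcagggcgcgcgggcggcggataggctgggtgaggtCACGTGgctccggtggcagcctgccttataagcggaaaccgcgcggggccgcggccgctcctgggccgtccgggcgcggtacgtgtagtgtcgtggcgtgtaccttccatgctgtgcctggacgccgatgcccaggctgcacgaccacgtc

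The sterol element was matched in Hmgcs1 alone among the 5 genes, as TCACCCCAC starting at position -137 from the start site, and in 1.24% of all 32851 windows. The shorter CACCCCAC, which overlaps it, was matched in the same place and in 2.87% of all windows. A CCAAT box was found in at least 1 window of each of the 5 genes, or 5 of 7 windows, against 37.4% of all windows. Among the other pathway enzymes, 10 of 12 windows held a CCAAT box. Idi1 had 2, at -45 and -14, and Hmgcs1 had 4. The GC box (GGGCGG, bound by Sp1) was found in 6 of 7 windows of the described genes and in 35.7% of all windows. An E-box was found in Insig1 at -101 and in 1 of the 3 windows of Dhcr7, against 7.15% of all windows. These matches describe the letters in the windows, and show no binding.

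Hmgcs1 encodes the cytosolic enzyme that joins acetyl units into HMG-CoA, and was the most abundant of the 7. It had 32.7, 28.0 and 34.1 FPKM across the high group and 34.9, 33.3 and 33.6 across the low group. High library 2 was the lowest of the 6 and the groups overlapped. The means were 31.6 ± 3.18 and 33.9 ± 0.844, which is -0.10 as a difference in log2(FPKM + 1) of high minus low, called the log2 difference from here on (SE 0.0802, limma adjusted p = 0.727). Without high library 2 it was -0.02, and without high library 3 it was -0.16.

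Idi1 encodes the isomerase that makes dimethylallyl pyrophosphate, the starter of isoprenoid chains, and was the least abundant. Its levels were 2.74, 2.31 and 3.10 FPKM across the high group against 3.14, 3.04 and 3.33 across the low group. High library 2 was again lowest, and only high library 3 reached into the range of the low group. The means of 2.72 ± 0.396 and 3.17 ± 0.149 gave a log2 difference of -0.17 (SE 0.0980, limma adjusted p = 0.643), which was -0.09 without high library 2.

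Fdft1 encodes squalene synthase, the first enzyme committed to sterols, and had the tightest replicates of the 7. It stood at 24.3, 23.9 and 23.6 FPKM across the high group and at 21.4, 21.3 and 21.2 across the low group. Every high library lay above every low library, and the coefficient of variation was 1.52% and 0.556%. The means of 23.9 ± 0.364 and 21.3 ± 0.118 differed by a ratio of 1.12, with a log2 difference of 0.16 (SE 0.0540, 95% interval 0.04 to 0.29). This did not pass over all genes (limma unadjusted p = 0.0170, adjusted p = 0.564). The authors' deposited table gives Fdft1 an unadjusted p of 0.000275, which ranks 5 among its 13170 genes. That p is not adjusted for the number of genes. In the limma fit Fdft1 ranked 358 by p among the 12026 genes tested. Insig1 ranks 608 by the authors' p. The locus of Fdft1 overlaps that of Ctsb, a cathepsin gene on the opposite strand, by 774 bases. Ctsb had 87.8 ± 3.15 against 83.1 ± 4.95 FPKM. The libraries were made with dUTP and so keep strand, but no source used here says whether reads were counted by it, and a share of Ctsb reads in the Fdft1 values was not tested.

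Sqle encodes squalene epoxidase, the oxygen-dependent step after squalene. Its levels were 12.5, 12.1 and 11.7 FPKM across the high group and 12.6, 11.4 and 11.5 across the low group. The high libraries lay within the range of the low libraries, at 12.1 ± 0.443 against 11.8 ± 0.658, and the log2 difference of 0.03 had a 95% interval from -0.12 to 0.18 (limma adjusted p = 0.901).

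Cyp51 encodes the demethylase that acts on lanosterol, and Dhcr7 the reductase that turns 7-dehydrocholesterol into cholesterol. Cyp51 had 13.1, 12.1 and 14.03 FPKM across the high group and 12.7, 13.1 and 11.8 across the low group. The groups were interleaved, with means of 13.1 ± 0.945 and 12.5 ± 0.639 and a log2 difference of 0.06 (SE 0.0738, limma adjusted p = 0.835). Dhcr7 had 7.81, 7.33 and 8.08 FPKM across the high group and 7.38, 7.08 and 7.72 across the low group. These too overlapped, with means of 7.74 ± 0.382 and 7.39 ± 0.318 and a log2 difference of 0.06 (SE 0.0685, limma adjusted p = 0.818). The direction of Cyp51 turned when choroid plexus markers entered the model, to -0.02, and with low libraries 1 and 3 both left out, to -0.0027. The locus of Cyp51 shares 166 bases with Akap9 on the opposite strand, which had 3.02 ± 0.0575 against 3.24 ± 0.290 FPKM.

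Insig1, the sterol-sensing regulator of the set, stood at 15.7, 14.3 and 16.5 FPKM across the high group and at 12.9, 13.2 and 13.7 across the low group, so that the groups did not overlap. The means of 15.5 ± 1.13 and 13.2 ± 0.403 gave a ratio of 1.17 and a log2 difference of 0.21 (SE 0.0705, 95% interval 0.05 to 0.37). It did not pass over all genes (limma unadjusted p = 0.0174, adjusted p = 0.564). Of the 7 genes it had the largest log2 difference in this fit, while Idi1 was further from 0 without high library 3 (-0.24, against 0.17 for Insig1) and with the mean of the myelin genes in the model (-0.29, against 0.09).

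**Figure D1:**
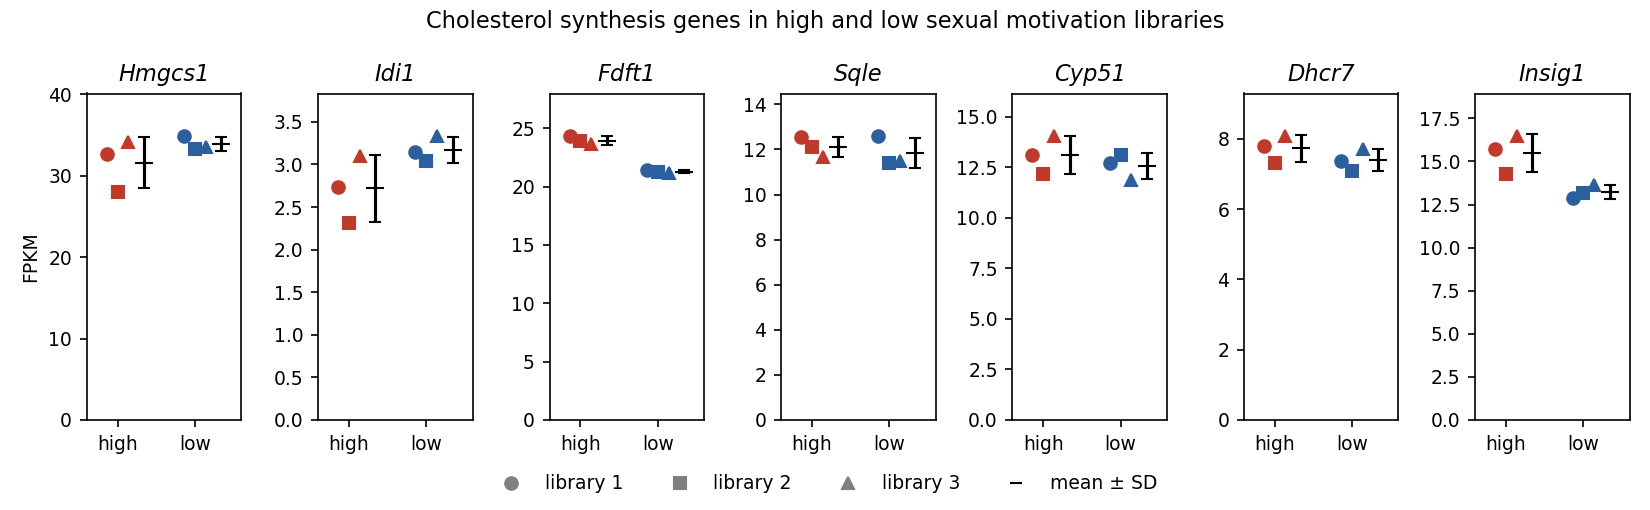
FPKM of the 7 genes in each library, with 1 panel per gene, a linear axis from 0, a separate marker for libraries 1, 2 and 3, and the mean ± SD of each group beside the points. For Fdft1 and Insig1 the 3 high libraries lie above the 3 low libraries, while for Hmgcs1 and Idi1 high library 2 is the lowest point at 28.0 and 2.31 FPKM.

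Of the 7 genes, 0 passed limma at an adjusted p under 0.05, against 0% of all 12026 genes tested. At an unadjusted p under 0.05 there were 2, Fdft1 and Insig1, where 8.39% of all genes had one (4.12% higher and 4.27% lower). The same 2 had groups that did not overlap, both higher in the high group, where 7.33% of all genes did so in that direction, 7.61% in the other and 14.9% in either. Mean levels were higher in the high group for 5 genes and lower for 2, beside 50.1% higher and 49.9% lower over all genes. The median log2 difference of the 7 was 0.06, beside 0.00018 over all genes tested. It was 0.02 without low library 3, 0.03 without low library 2 or high library 3, 0.09 without high library 2 and 0.0098 with the myelin mean in the model. The exact 2-sided permutation p of the group means was 0.1 for Fdft1 and Insig1, the smallest that 3 against 3 can give, and 0.2 to 0.6 for the other 5.

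In order of level, Hmgcs1 was followed by Fdft1, Insig1, Cyp51, Sqle, Dhcr7 and Idi1 in both groups. Cyp51 and Sqle overlapped within each group, and Insig1 and Cyp51 overlapped in the low group, while the other neighbours were separate in each group. High library 2 was the lowest high library for 5 of the 7 genes, and high library 3 was the highest high library for 5. The summed level of the 7 genes was 109, 100.03 and 111 FPKM across the high group and 105, 102 and 103 across the low group. High library 2 thus had the lowest sum and the other high libraries the highest.

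The genes did not vary as a block across the 6 libraries. Of 21 pairs, 14 had a positive and 7 a negative Pearson r of log2(FPKM + 1), from -0.70 for Idi1 and Fdft1 to 0.92 for Hmgcs1 and Idi1. The pair of Hmgcs1 and Idi1 had a Spearman rho of 0.83, with exact permutation p-values of 0.0194 for r and 0.0583 for rho. Adjusted over the 21 pairs these were 0.408 and 0.830, and r was 0.73 without the 2 libraries farthest from the median of Hmgcs1. Insig1 and Fdft1 had r = 0.83 and rho = 0.60 (exact permutation p = 0.0722 and 0.242, adjusted 0.506 and 0.830). Without the 2 libraries farthest from the median of Insig1, r was 0.79. Within the groups these 2 genes did not rise together. From low library 1 to 3, Fdft1 fell (21.4, 21.3 and 21.2 FPKM) while Insig1 rose (12.9, 13.2 and 13.7). In the high group Fdft1 was highest in library 1 and lowest in library 3, where Insig1 was highest. In all, 0 pairs passed after adjustment. The libraries of both groups entered each r, so the difference between the groups is part of it.

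**Figure D2:**
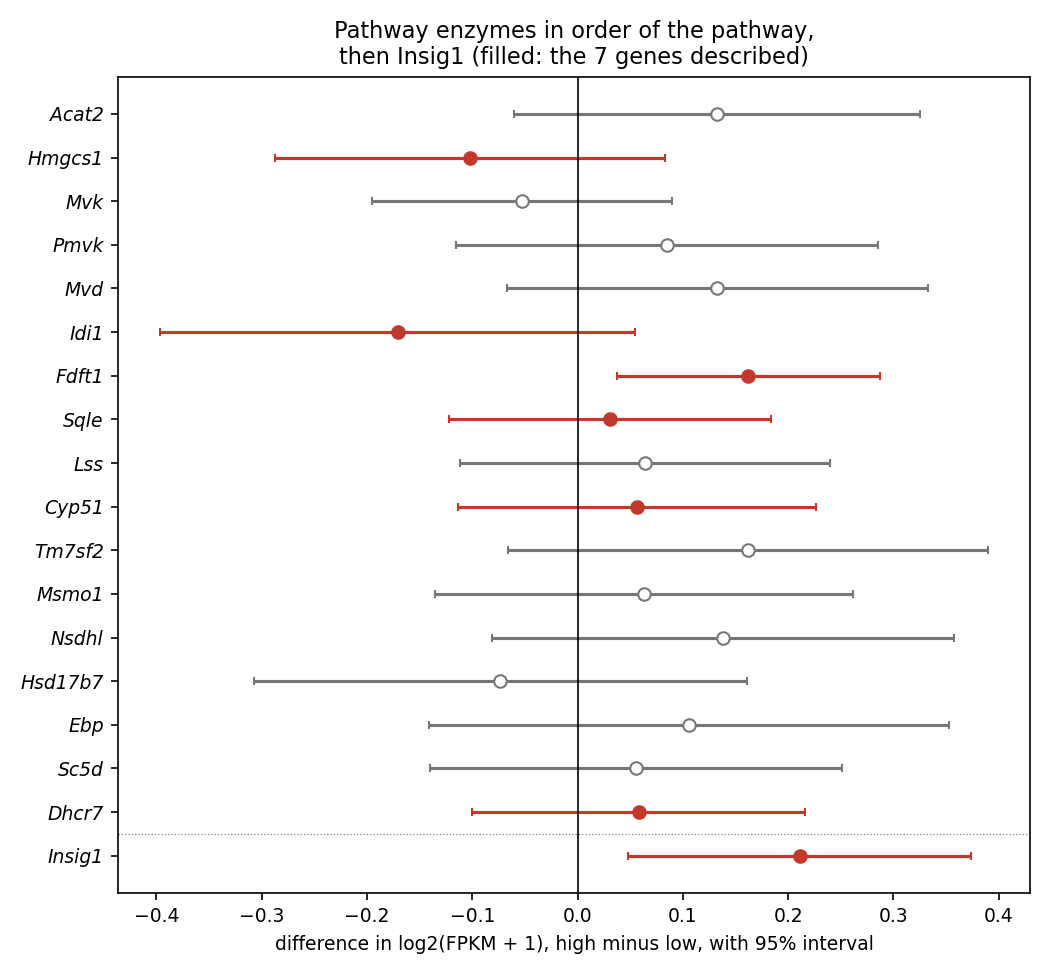
Difference in log2(FPKM + 1), high minus low, with its 95% interval from limma, for pathway enzymes from the first step at the top to Dhcr7, followed by Insig1 below the dotted line. Filled points are the 7 genes described and open points the other genes. The intervals of Fdft1 and Insig1 lie above 0, and those of all other genes drawn include 0.

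The remaining enzymes showed small differences, mostly in 1 direction. Of the 5 other mevalonate enzymes in the table, 4 had higher and 1 had lower means in the high group, 0 passed over all genes in either direction, and the median log2 difference was 0.13. This median was 0.04 with choroid plexus markers in the model, 0.08 with the GC and length trend removed, 0.08 without high library 3 and 0.06 without low libraries 1 and 3. Mvk, mevalonate kinase, was the 1 with the lower mean, at 7.43 ± 0.195 against 7.74 ± 0.163 FPKM, without overlap (log2 difference -0.05, limma adjusted p = 0.817). Acat2, Mvd and Pmvk overlapped between the groups.

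Of the 8 other sterol enzymes, 7 had higher and 1 had lower means, 0 passed and 0 had separate groups, with a median of 0.09 that was 0.03 without high library 3 and 0.02 with the myelin mean in the model. Tm7sf2, a sterol reductase, had 4.24 ± 0.378 against 3.69 ± 0.454 FPKM. Hsd17b7 was the 1 with the lower mean, at 2.06 ± 0.234 against 2.23 ± 0.271. Over all 19 enzymes, which include the described genes except Insig1, 15 had higher and 4 had lower means. Over all genes tested these shares were 50.1% and 49.9%. The 19 enzymes are not independent replicates. Their summed FPKM was 244, 229.6 and 247 across the high group and 232, 228 and 226 across the low group. High library 2 lay within the low range and the other high libraries above it.

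Among the genes that control sterol supply, Mylip, a ubiquitin ligase induced by the sterol receptor LXR, was higher in every high library, at 7.39 ± 0.439 against 6.38 ± 0.269 FPKM (limma adjusted p = 0.582). Rnf139, a ligase of the endoplasmic reticulum that takes part in sterol-driven degradation, lay lower in every high library, at 3.50 ± 0.402 against 4.48 ± 0.192 (log2 difference -0.29, limma adjusted p = 0.553).

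The factors themselves overlapped between the groups. Srebf2 had 37.3 ± 2.23 against 36.2 ± 3.38 FPKM, Srebf1 had 10.6 ± 0.735 against 11.1 ± 0.708, and Scap, the escort of the precursor, had 15.1 ± 0.263 against 14.6 ± 0.614. Insig2, the relative of Insig1 that is not driven by SREBP, had 10.6 ± 0.713 against 11.4 ± 0.507, with a log2 difference of -0.10 (SE 0.0715, limma adjusted p = 0.713). Of the 15 tested genes in the list of SREBP control and sterol uptake, 6 had higher and 9 had lower means, and 0 passed. In the list of LXR receptors, sterol export and turnover, 4 had higher and 7 had lower means, and 0 passed. Soat1, which esterifies cholesterol, had 4.37 ± 0.177 against 4.79 ± 0.189 without overlap. Cyp46a1, the neuronal hydroxylase that clears cholesterol from the brain, overlapped between the groups, as did Apoe, which carries lipids between brain cells.

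Myelin protein genes were set beside the 7 genes because growing myelin takes up much of the cholesterol made in the brain. All 15 tested myelin genes had higher means in the high group, beside 50.1% of all genes. Of the 15, 4 did not overlap between the groups, where 7.33% of all genes were higher without overlap. The 15 genes are not independent replicates. The median of their log2 differences was 0.19, and 0 passed limma over all genes. At an unadjusted p under 0.05 there were 5, Mobp, Mog, Gjb1, Mbp and Cnp, where 4.12% of all genes were higher at that p. Mbp, the basic protein that compacts the sheath, had 134, 120 and 133 FPKM across the high group and 106, 113 and 115 across the low group. Its log2 difference was 0.21 (SE 0.0710, limma adjusted p = 0.572), close to the 0.21 of Insig1. Mobp, another basic protein of myelin, had 48.3, 45.5 and 48.4 FPKM across the high group and 35.7, 39.4 and 40.1 across the low group. All high libraries again lay above the low libraries, with a log2 difference of 0.30 (SE 0.0664, limma adjusted p = 0.496).

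The 2 sets differed in how the libraries were ordered by their means. High library 2 was the lowest high library for 9 of the 15 myelin genes and for 5 of the 7 cholesterol genes. It was the lowest of all 6 libraries for 4 of the 15 and 2 of the 7. The mean log2(FPKM + 1) of the 15 myelin genes deviated from its mean over the 6 libraries by 0.20, -0.0034 and 0.09 across the high group and by -0.17, -0.06 and -0.05 across the low group. For the 7 cholesterol genes these deviations were 0.04, -0.07 and 0.08 across the high group and -0.0034, -0.03 and -0.01 across the low group. By this measure the myelin mean was above every low library in each high library, and the cholesterol mean was not. By summed FPKM the myelin genes overlapped between the groups, at 522, 441 and 504 across the high group and 411, 439 and 449 across the low group. The cholesterol mean minus the myelin mean was -0.42, -0.33 and -0.28 across the high group and -0.10, -0.23 and -0.23 across the low group. These scores rest on chosen genes and were not tested. With the myelin mean of each library in the model, the log2 difference was 0.09 for Insig1 (SE 0.118, limma adjusted p = 0.873) and 0.15 for Fdft1 (SE 0.102, limma adjusted p = 0.743). In that model Hmgcs1 stood at -0.21 and Idi1 at -0.29. Since the myelin mean separates the groups, its part and that of the group cannot be told apart in this model. The SE of Insig1 was 0.0705 without the myelin mean.

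**Figure D3:**
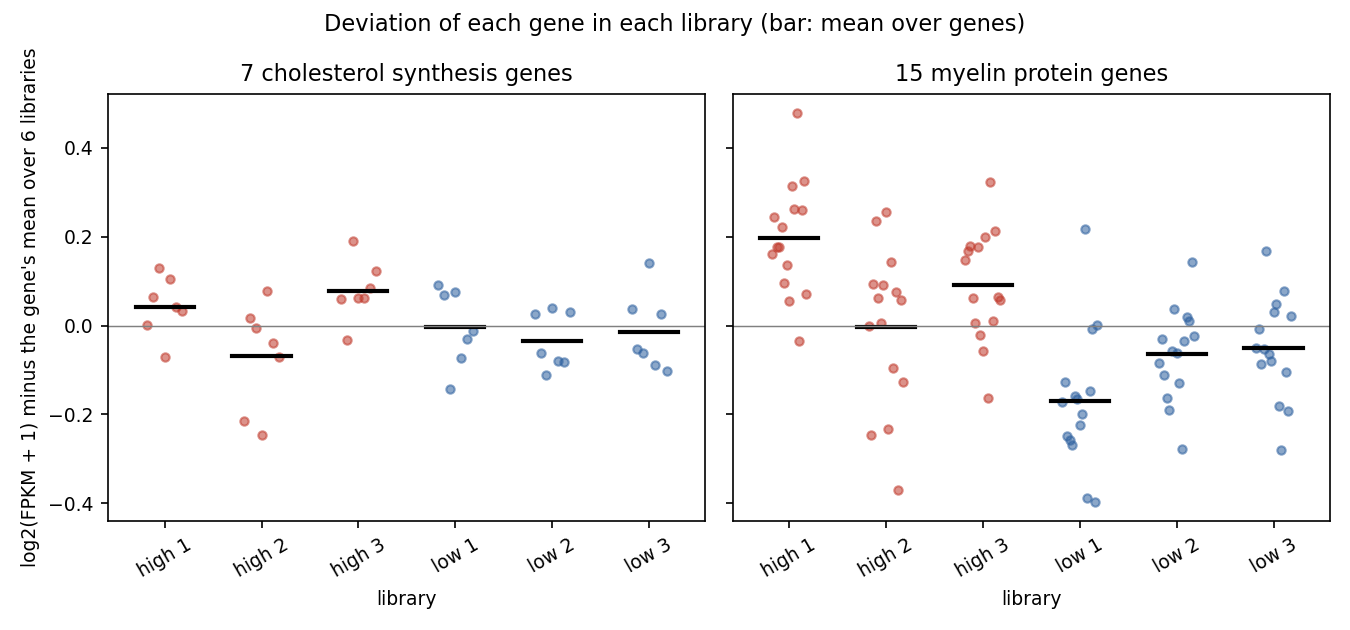
Deviation of each gene's log2(FPKM + 1) from its own mean over the 6 libraries, for the 7 cholesterol synthesis genes at the left and the 15 myelin protein genes at the right, with 1 column of points per library and a bar at the mean over genes. The myelin bars are at 0.20 in high library 1 and -0.17 in low library 1, while the cholesterol bars stay between -0.07 and 0.08.

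Transcript composition moved with these differences. Over 11924 genes with a GENCODE transcript, the log2 difference followed GC content with a Spearman rho of 0.39 across genes, which are not independent replicates. With transcript length the Spearman rho was -0.23 over the same genes. Of 5 bins of equal size by GC content, the lowest had a median difference of -0.09 and the highest 0.05. Idi1 and Hmgcs1, the 2 with lower means, had the lowest GC content of the 7, at 41.9% and 43.1%. Insig1 (48.2%) and Fdft1 (51.8%) lay in the middle of the range. Once each library was freed of its trend with GC content and length, Hmgcs1 was at -0.04 (limma adjusted p = 0.912) and Idi1 at -0.09 (limma adjusted p = 0.818). Fdft1 and Insig1 stayed at 0.15 and 0.21 in that fit, with limma adjusted p-values of 0.590 and 0.580.

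**Figure D4:**
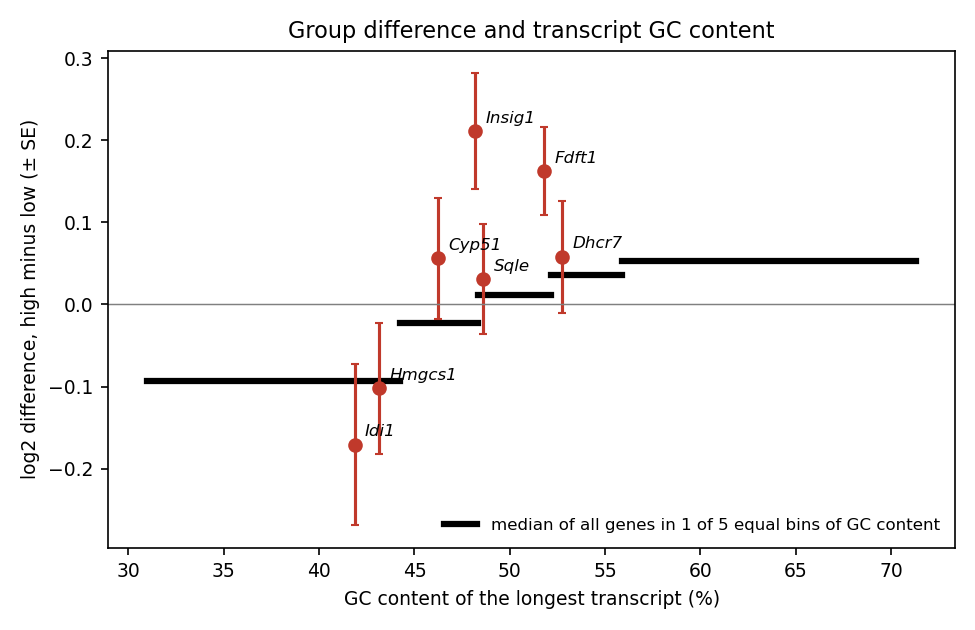
Log2 difference, high minus low, with its SE against the GC content of the longest transcript for the 7 genes, with black bars at the median of all genes in each of 5 bins of GC content. Idi1 and Hmgcs1 lie in the lowest bin, where the median of all genes is -0.09, and Insig1 and Fdft1 lie above the bars at their GC content.

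Among other cell types, choroid plexus, ependymal and leptomeningeal markers had the largest median log2 differences, at -1.72, -0.82 and 0.75. No list of markers held a gene past limma over all genes. Choroid plexus markers had lower means in the high group in 8 of 8 genes. By summed level only low libraries 1 and 3 stood apart, at 1332 and 4146 FPKM. Low library 2 had 79.0 FPKM, within the range of the high group, which ran from 39.0 to 109. Ependymal markers were lower in 7 of 7, at 11.8 to 13.8 against 20.6 to 40.5 FPKM, and leptomeningeal markers higher in 6 of 6 tested. The summed level of the 7 leptomeningeal markers in the table was 9.06 to 45.4 against 7.59 to 15.9 FPKM. Astrocytes, a main site of sterol synthesis in the adult brain, had 4 of 10 markers higher, at 587 to 767 against 605 to 690 FPKM, and neuron markers 9 of 14, at 1318 to 1518 against 1311 to 1397. Means were higher for 6 of 8 endothelial and mural, 5 of 8 microglia and 3 of 6 oligodendrocyte precursor markers. They were higher for 3 of 4 tested enzymes of myelin lipids. Over all genes tested, 50.1% had higher means. No marker in the table is listed at 0. With the choroid plexus mean in the model, Insig1 was at 0.22 and Fdft1 at 0.16, each with a limma adjusted p of 0.778. The part of the other cell types in the results was not tested, and in tissue RNA fewer cells of a type and less RNA per cell cannot be told apart.

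As for the libraries as a whole, absolute depth is unknown, and relative depth, from the most common ratio of low FPKM values, spanned 0.916 to 1.28 times the median. High library 2 was the deepest, and mitochondrial genes made up 11.1% of its FPKM, against 13.6% to 16.4% elsewhere. Neuronal genes were abundant in both groups, with Snap25 at 238 ± 22.7 against 233 ± 6.34 FPKM. Of 18 genes that mark the amygdala or neighbouring regions, 14 were in the table and 11 were tested, of which 5 had higher and 6 had lower means. Of these 0 passed limma over all genes, and 4 had an unadjusted p under 0.05, where 8.39% of all genes had one. Groups without overlap were seen in 14.9% of all genes tested. Otp, a transcription factor of the hypothalamus and medial amygdala, had 2.74 ± 0.886 against 1.40 ± 0.251 FPKM, and Rspo2, a secreted Wnt agonist, had 4.81 ± 0.865 against 3.39 ± 0.222, both without overlap. Emx1, a cortical transcription factor, had 3.00 ± 0.554 against 3.77 ± 0.235, with all high libraries below the low ones, and the peptide gene Cartpt had 11.01 ± 1.70 against 14.2 ± 2.47 with overlap. Esr1, an oestrogen receptor gene that averaged under 1 FPKM and was not tested in the reported fit, had 0.652 ± 0.185 against 1.06 ± 0.116 without overlap. Lhx6 (8.47 ± 0.938 against 8.66 ± 0.611) and the cortical Tbr1 (12.3 ± 2.49 against 12.9 ± 1.68) were present in both groups and overlapped. The part of region content in the differences of the 7 genes was not tested.

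Under other settings the 7 genes mostly kept their direction. Over 22 alternatives, Fdft1 ranged from 0.15 to 0.17 and Insig1 from 0.09 to 0.27. Hmgcs1 ranged from -0.21 to -0.02, and Idi1 from -0.29 to -0.09 over 21, since its mean lies under 5 FPKM. Sqle (0.0067 to 0.08), Dhcr7 (0.00028 to 0.11) and Cyp51 (-0.02 to 0.11) stayed near 0. Neither Fdft1 nor Insig1 passed under any of these, with lowest limma adjusted p-values of 0.250 and 0.190, both with array weights.

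**Figure D5:**
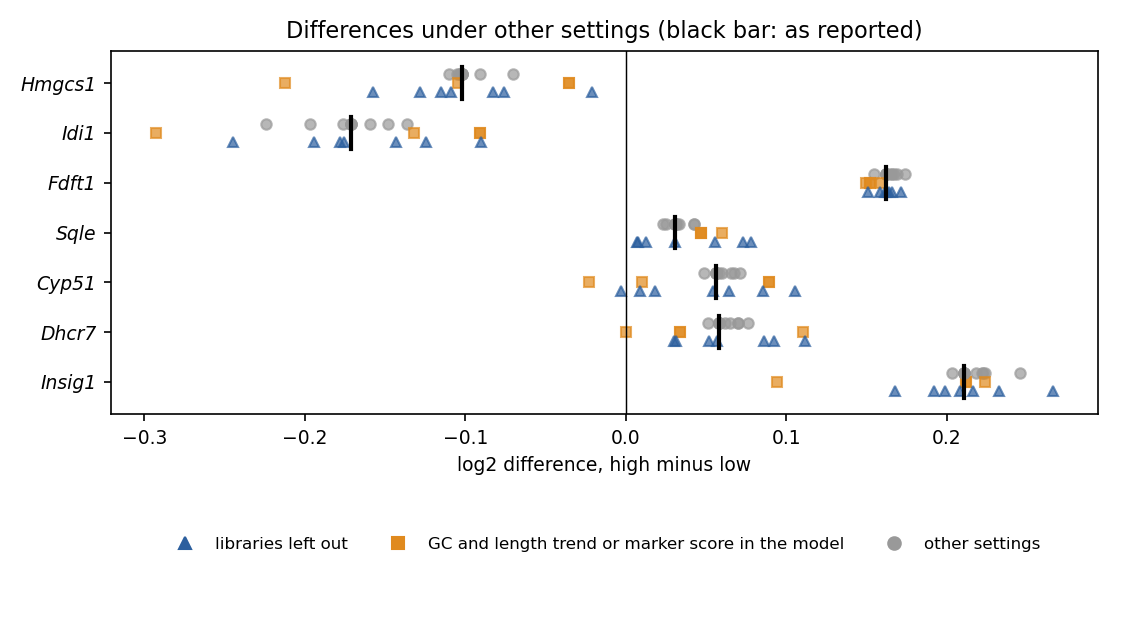
Log2 difference, high minus low, of the 7 genes under each alternative setting, with triangles for fits that leave libraries out, squares for fits with the GC and length trend or a marker score, circles for the other settings and a black bar for the value as reported. The points of Fdft1 lie between 0.15 and 0.17, and those of Cyp51 fall on both sides of 0.

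The genes outside all lists whose profile was most like the mean of the 7 were sought among 7195 named genes with at least 5 FPKM. By Pearson r over the 6 libraries these were Tnrc6a (0.99), Rtl8a (0.98), Ezh1 (0.98), Mrs2 (0.98), Shf (0.97), Plcxd2 (0.97), Tbce (0.96) and Dnajc15 (0.96). With 6 libraries, such values are a description of the order of the libraries. Tnrc6a, which encodes a protein of microRNA silencing, had 8.00, 6.61 and 8.67 FPKM across the high group and 7.70, 7.16 and 7.34 across the low group, and was lowest in high library 2, as was the mean of the 7.

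In GRCm38, Cyp51 lies on chromosome 5 from 4081145 to 4104746 and Insig1 on the same chromosome from 28071363 to 28078662. Dhcr7 lies on chromosome 7 from 143823145 to 143848410. Idi1 and Hmgcs1 share chromosome 13, from 8885501 to 8892451 and from 119690379 to 119708260. Fdft1 lies on chromosome 14 from 63145150 to 63179578 and Sqle on chromosome 15 from 59315077 to 59331192. An antisense gene on the opposite strand overlaps Hmgcs1 by 6190 bases and was not analysed here. All 7 are annotated as protein coding, and the deposited values are per gene, so exons and transcripts were not separated.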

How the data were processed

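Polyadenylated RNA was sequenced from 6 libraries. The authors deposited FPKM, 1 column per library; the submitters' processing notes name fastp, HISAT2, StringTie and the build GRCm38, without versions or settings. The authors' deposited log2 fold change and p-value were used only where named. The 12026 genes whose mean reached 1 FPKM were kept, and their log2(FPKM + 1) was fitted with limma 3.58.1 (R 4.3.3) with a variance trend, 2-sided tests and Benjamini-Hochberg adjustment over all of them at 0.05. The fit was checked on simulated data with genes drawn independently of each other. That check rested on the size of the estimates and does not give the power on these libraries. Permutation tests were exact and 2-sided. Transcript GC content and length came from the longest GENCODE transcript per symbol, gene positions from the same annotation, and promoters from RefSeq. Other steps ran in Python 3.11.15 (scipy 1.17.1, pandas 2.3.3, numpy 2.4.6, matplotlib 3.10.9).

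The 7 genes and all lists were chosen with earlier results of these data known. Named genes are the 7, all pathway enzymes and myelin genes, up to 5 genes of each other list by p, genes that explain the pathway, and the 8 most alike by r; Ctsb, Akap9, Snap25, Lhx6 and Tbr1 were named after their values were seen. Some genes under this rule are not reported here. Alternatives were other pseudocounts, filters, scalings and variance models, the replicate block, the GC and length trend, marker scores and left-out libraries.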

Additional observations from a re-analysis of the deposited data

How the results depend on the processing

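Over 22 alternatives, 0 of the 7 genes and 0 of the 15 myelin genes passed, as in the reported fit. Cyp51 turned to -0.0228 with choroid plexus markers in the model and to -0.0027 without low libraries 1 and 3; the cause was not tested. The other 6 genes kept their direction in each fit that held them. The median of the myelin genes was 0.0076 with the myelin mean in the model, by the construction of that model. Genes at an unadjusted p under 0.05 fell from 2 of the 7 to 0 with either marker score in the model, without high library 1 or without low libraries 1 and 3, and to 1, Fdft1, without low library 1. Without high library 3 the count stayed at 2 but the genes were Fdft1 and Idi1: limma's unadjusted p was 0.0602 for Insig1 and 0.0429 for Idi1, which was lower. Over all genes that count was 1009, against 1567 with array weights, 593 without low library 1 and 350 without low libraries 1 and 3. Same-numbered libraries share only a number: their deviations correlated at -0.09, -0.21 and -0.16. With the replicate number as a block, 0 genes passed of all tested and 743 had an unadjusted p under 0.05; Fdft1 stayed at 0.16 (limma adjusted p = 0.757) and Insig1 at 0.21 (limma adjusted p = 0.757). Absolute depth is unknown, so counting error could not be separated from other spread.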

Other observations

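Fatty acid synthesis is driven by SREBP-1, the relative of SREBP-2. Of its 9 tested genes 5 had higher and 4 had lower means, with 0 past limma over all genes, 0 at an unadjusted p under 0.05 and a median log2 difference of 0.02 (-0.0026 to 0.06 over 22 alternatives). Scd2, the main desaturase of brain, had 280.4 ± 21.6 against 268 ± 9.22 FPKM, and Fads2 had 104 ± 10.5 against 108 ± 3.08.

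The isoprenoid branch leaves the pathway after Idi1 and serves dolichol, ubiquinone and protein prenylation. Of 9 tested genes 7 had higher and 2 had lower means, with 0 past limma over all genes, 0 at an unadjusted p under 0.05 and a median of 0.05 (0.02 without high library 1, 0.09 without high library 2). Nus1, a subunit of the prenyltransferase of dolichol synthesis, had 17.6 ± 1.27 against 19.5 ± 0.533 FPKM, each high library below each low library (limma adjusted p = 0.605). Coq2, which attaches the side chain of ubiquinone, lay the other way round without overlap, at 24.7 ± 1.25 against 23.2 ± 0.0991 (limma adjusted p = 0.696).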
